A study of Mus musculus with 12 samples.

Results

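The genes described here are 9 that are classically read as a sign of adipocyte differentiation or of lipid handling: the transcription factors Pparg, Cebpa, Cebpb and Cebpd, and the lipid carriers and handlers Fabp4, Cd36, Lpl, Angptl4 and Plin2. They were taken by symbol from a deposited table of 55291 gene symbols. Of the 9, 8 had enough counts to be among the 17289 genes tested, and Pparg did not. RNA was sequenced from MC3T3-E1, a wild-type mouse preosteoblast line that deposits bone matrix when it is differentiated. The IFN arm received the murine type I interferon IFN beta (IFN) at 50 mg/L per the labels from the start of bone differentiation, and the control arm was differentiated without it. Each arm was sampled on days 0, 14 and 21 with 2 libraries a day, 12 in all. Day 0 is 2 days after confluence, and the labels leave unsaid whether the IFN libraries of day 0 had met the cytokine. Nothing in the labels says that the 2 libraries of a group came from separate cultures, so p-values measure the spread between libraries, which may be technical.

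Adipocytes and osteoblasts can arise from common mesenchymal precursors. In preadipocytes, Cebpb and Cebpd are induced early by adipogenic hormones and then switch on Pparg and Cebpa, a nuclear receptor and a transcription factor that sustain each other and turn on the genes of the fat cell. Fabp4, which carries fatty acids in the cytosol, Cd36, which takes them up at the cell surface, Lpl, which frees them from circulating triglyceride, and Plin2, which coats lipid droplets, are responsive to PPAR receptors, as is Angptl4, a secreted inhibitor of Lpl. Several of the 9 also answer to other signals, such as glucocorticoids, low oxygen or fatty acids themselves, and Fabp4 and Cd36 are made by endothelial cells and macrophages as well as by adipocytes.

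Library totals ran from 29772425 to 38908453 counts. Replicates of the control arm differed more than those of the IFN arm, with a median SD of log2 CPM (a gene's share of the counted reads of a library, in parts per 1000000, scaled by TMM) of 0.24 to 0.44 in control groups and 0.08 to 0.11 in IFN groups. Control libraries also stood apart from one another. In replicate 2 of control day 21 the endoplasmic reticulum chaperone Hspa5 reached 25680 CPM, against 562.9 to 1828 CPM in the other 11 libraries. In replicate 1 of control day 14 the hypoxia-responsive gene Bnip3 stood at 626.4 CPM, against 91.24 CPM in replicate 2, and replicate 1 of control day 0 held 21080 CPM of the transcript CT010467.1. All 9 osteoblast markers listed were tested, at very different levels. Col1a1 ran between 1083 and 9729 CPM, Spp1 between 1975 and 14060 CPM and Runx2 between 71.9 and 126 CPM. Bglap, the late marker osteocalcin, ran between 0.292 and 6.89 CPM, Alpl between 0.554 and 29.99 CPM, and Ibsp had no count in 3 libraries and reached 23.63 CPM.

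The 9 genes did not move as one group. Fabp4, Cebpb, Plin2 and Angptl4 were higher at day 21 than at day 0 in both arms, Cd36 was lower at day 14 than at day 0 in the IFN arm, and Cebpa and Cebpd passed the test over time in neither arm. Lpl stayed at or below 1.26 CPM, and Pparg, with 12 counts over all libraries, was at the edge of detection. With IFN, Fabp4 was lower at day 14, and it was the only one of the 8 tested genes to pass the test between arms in edgeR.

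A gene was called where its adjusted p in edgeR was below 0.05. For IFN against control, 1 of 8 was called at day 14, lower with IFN, where 2.29% of all genes tested were called and 0.995% were called lower. The 2 arms did not overlap at day 14 for 6 of the 8 genes. Fabp4, Cd36 and Cebpd lay lower with IFN in both libraries, as did 27.1% of all genes, and Plin2, Cebpa and Cebpb lay higher, as did 28.6%. By day 21 the count was 0 of 8, where 0.995% of all genes were called, and for day 0 it was 0 of 8, where 0.00578% were called. At each of the pair of days 1 gene had an unadjusted p below 0.05, against 13.1% of all genes for day 21 and 2.2% for day 0. DESeq2 and limma voom also called 0 of the 8 on days 0 and 21. At day 14 DESeq2 called 2, both lower, and limma voom called 3, with 1 higher and 2 lower. Of all 17289 genes, DESeq2 called 992 at day 14, 629 at day 21 and 1 at day 0. Limma voom called 1647, 123 and 0 of them on these days. The member median of the log2 fold change, IFN over control, was -0.49 at day 14 and -0.39 by day 21, against -0.01 over all genes on both.

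Over time, 4 of 8 genes were called in the IFN arm between day 14 and day 0, with 3 higher and 1 lower at day 14, where 10.7% of all genes were called, 5.18% higher and 5.56% lower. In the control arm 1 of 8 was called, higher at day 14, where 2.38% of all genes were called and 1.55% were called higher. Between day 21 and day 0, a comparison added after values were seen, 4 of 8 were higher in the IFN arm, where 10.2% of all genes were called and 5.88% called higher. In the control arm it was also 4 of 8, where 6.44% were called and 3.82% called higher. These were the same 4 genes, but the comparisons rest on different libraries and no test of their overlap was run. Between day 21 and day 14, 0 of 8 were called in the IFN arm, where 0% of all genes were called, and 0 of 8 in the control arm, where 0.0289% were called. Below an unadjusted p of 0.05 these counts were 4 in the IFN arm, against 6.54% of all genes, and 5 in the control arm, against 17.8%. DESeq2 called 1 in the IFN arm and 3 in the control arm, and limma voom called 5 in the IFN arm and 0 in the control arm. Of all 17289 genes, DESeq2 called 111 in the IFN arm and 838 in the control arm, and limma voom 2759 and 5. Fewer cells that make a transcript and less of it per cell cannot be told apart in any of these bulk libraries.

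**Figure D1:**
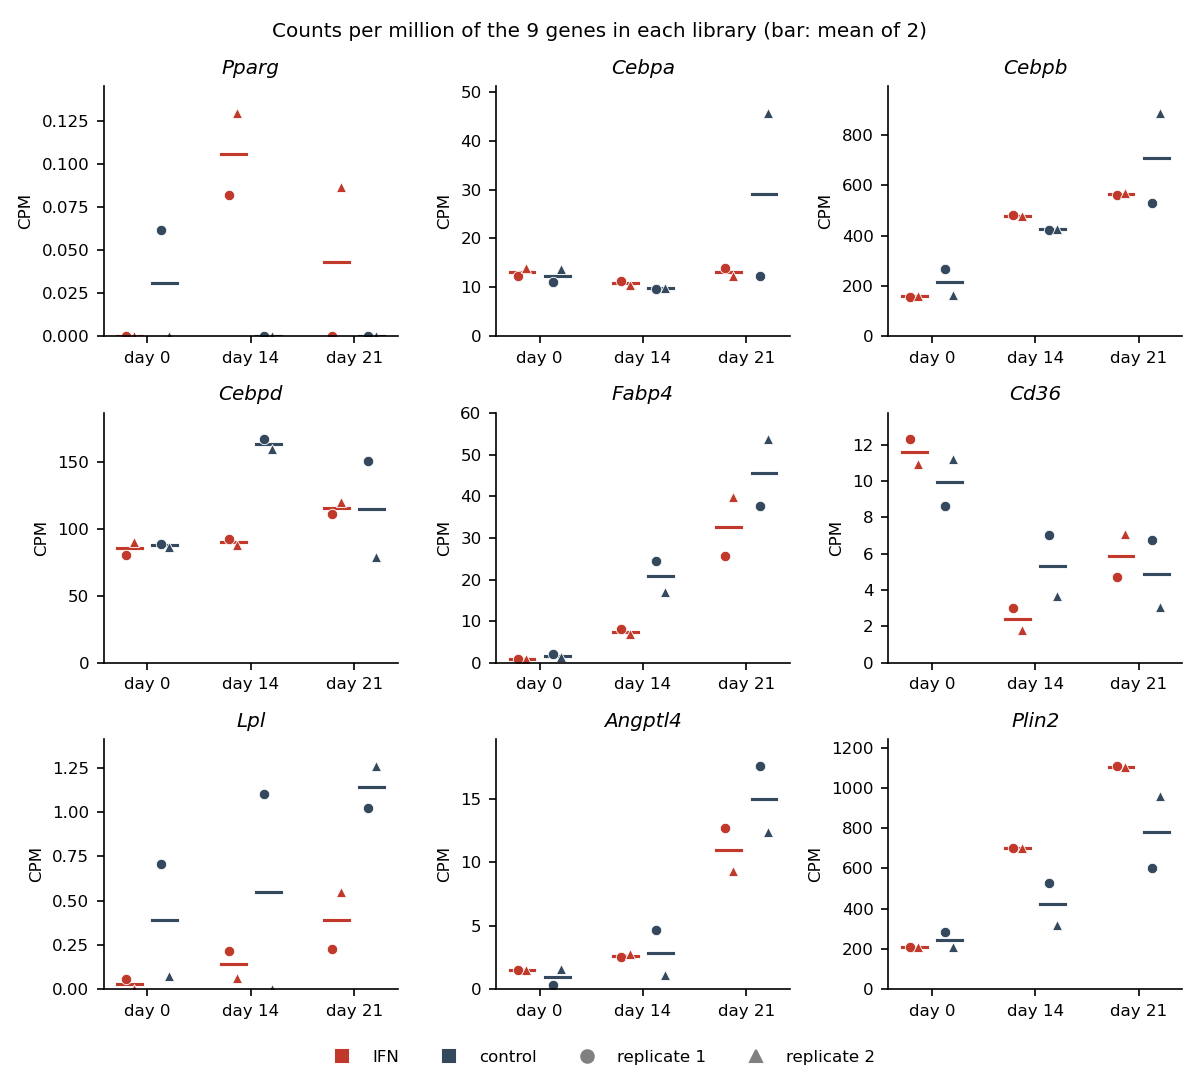
CPM of each of the 9 genes (vertical axes, linear, each with its own scale) by day, with IFN libraries in red left of control libraries in blue. Circles are replicate 1, triangles replicate 2, and bars the mean of the 2; Fabp4, Cebpb, Plin2 and Angptl4 climb in both arms, whereas Pparg does not exceed 0.1298 CPM in any library.

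Levels of different genes can be compared only per length of transcript, and the length used was that of the principal transcript in GENCODE release M21. On this scale, CPM per kilobase, Plin2 averaged 585.8 and Cebpb 375.9 in the IFN libraries at day 21, against 413.9 and 472.1 without IFN. Within libraries, Plin2 was above Cebpb in both of the IFN arm and below it in both of the control arm. The control values were 320.2 against 352.9 and 507.5 against 591.3, so the 2 ranges overlapped. Fabp4 came next with a mean of 36.55 in the IFN libraries and 51.04 in the control libraries, and Cebpd followed with 30.93 and 30.75. Fabp4 and Cebpd overlapped in the IFN arm and were apart in the control arm. Cebpa stood at 5.00 with IFN and 11.07 in controls, Angptl4 at 3.33 and 4.53, and Cd36 at 1.73 and 1.44. Cebpa and Angptl4 overlapped in the control arm. Lpl, at 0.0942 with IFN and 0.277 in control, and Pparg, at 0.0245 with IFN and 0 in control, closed the order. At day 0 the order was the same at its upper and lower ends, but Fabp4, at 1.01 CPM per kilobase in the IFN libraries and 1.84 in the control libraries, lay below Cd36, at 3.42 and 2.92.

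Pparg (chromosome 6, 115360951 to 115490399, plus strand, mm10) encodes the nuclear receptor that is both required for and able to drive adipocyte formation. Its reads numbered 0 and 0 in the IFN libraries of day 0, 3 and 4 in those of day 14 and 0 and 3 in those of day 21. Control libraries held 2 and 0 reads on day 0 and none later. Pparg was thus listed at 0 counts in 8 of 12 libraries and never at more than 4. The 7 reads of IFN day 14 give 0.107 CPM over the 2 libraries, with an exact 95% Poisson interval of 0.0432 to 0.221 CPM, which covers counting error only. The 0 reads of control day 14 allow up to 0.0457 CPM at 3 counts over the group. Too few reads fell on Pparg for the test, and a lower level was not detectable at this depth. The antisense gene Gm44079, which overlaps Pparg on the opposite strand, had 2 counts in all.

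Because Pparg lies at the centre of the adipocyte programme and was almost unread while members of the C/EBP family were abundant, the 250 bases before the start of its principal transcript, Pparg-201, are shown beside those before the start of Cebpb and of Plin2, the genes with the highest levels per length. The sequences are from RefSeq on GRCm38.p6, which held windows for 5 of the 9 genes, 7 windows in all. They run 5′ to 3′ on the gene's strand, and capitals mark matches on either strand to the C/EBP core TTGCNNAA or to the hypoxia response element core ACGTG.
Pparg, chr6:115421816-115422065, plus strand: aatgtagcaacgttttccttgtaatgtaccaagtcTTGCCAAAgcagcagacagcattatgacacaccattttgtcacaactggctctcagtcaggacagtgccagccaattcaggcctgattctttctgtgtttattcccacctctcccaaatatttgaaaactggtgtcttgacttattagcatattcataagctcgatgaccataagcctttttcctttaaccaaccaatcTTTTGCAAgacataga
Cebpb, chr2:167688665-167688914, plus strand: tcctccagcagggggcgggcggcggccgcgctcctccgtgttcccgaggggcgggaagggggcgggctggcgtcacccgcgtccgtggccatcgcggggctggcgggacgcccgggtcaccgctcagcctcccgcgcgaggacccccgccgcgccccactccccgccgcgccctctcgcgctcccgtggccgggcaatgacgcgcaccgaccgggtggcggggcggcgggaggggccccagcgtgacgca
Plin2, chr4:86670060-86670309, minus strand: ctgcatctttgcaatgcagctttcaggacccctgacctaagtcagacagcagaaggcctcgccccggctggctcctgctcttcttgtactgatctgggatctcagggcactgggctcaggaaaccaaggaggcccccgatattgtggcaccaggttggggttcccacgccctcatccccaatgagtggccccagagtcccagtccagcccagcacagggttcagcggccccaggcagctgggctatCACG
Pparg-201 held 2 matches to the C/EBP core, 1 on each strand, and a match stood in 10.8% of the 32851 mouse windows of this kind, each of 250 bases before and 50 after a start. In Plin2 the capitals are the bases before the start of a palindrome that reads as ACGTG on both strands and runs across the start; 19.6% of windows held that core. Cebpb had neither. Its window was 80.7% G or C with 50 CpG sites, that of Plin2 60.7% with 10 and that of Pparg-201 40.3% with 2, against medians of 52.7% and 7 over all windows. The 2 other Pparg windows were 80.3% G or C with 44 CpG sites and 62.7% with 13, and neither held the C/EBP or the hypoxia core. The interferon-stimulated response element core, searched as GAAA, any 2 bases and GAAA and found in 3.44% of windows, had no match in the 7. Nor had the PPAR element, searched as 2 copies of AGGTCA 1 base apart and found in 0.0396% of windows, which says only that these letters are not in them.

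Cebpa (chromosome 7, 35119293 to 35121928), the partner of Pparg in the terminal steps of fat cell formation, was read at 12.39 and 13.92 CPM in the IFN libraries of day 0, 11.20 and 10.42 CPM at day 14 and 14.04 and 12.22 CPM at day 21. Control libraries gave 10.99 and 13.78 CPM at day 0, 9.74 and 9.91 CPM at day 14 and 12.40 and 45.76 CPM at day 21. Of the 12 libraries 11 lay between 9 and 15 CPM, and replicate 2 of control day 21 alone lay far above them. The log2 fold change of IFN over control at day 21 was -1.15 ± 0.45 (SE, n = 2 each; adjusted p = 0.31 in edgeR), and without that control library it turned to 0.07. Without replicate 1 of control day 21, which leaves the high library to stand for the group, it was -1.79 with an adjusted p of 0.000311 in edgeR. That library was also the one with high chaperone transcripts: the median log2 CPM of 19 endoplasmic reticulum stress genes was 10.18 there and 7.04 to 8.05 in the other 11, and the part of that difference in the Cebpa value was not tested. Over time, the control arm gave 1.23 at day 21 over day 0 (log2; adjusted p = 0.121 in edgeR) and 1.56 at day 21 over day 14 (adjusted p = 0.167 in edgeR). Without replicate 1 of control day 21 they were 1.86 and 2.19, again with the high library alone in its group. The IFN arm stood at 0.00 for day 21 over day 0 (adjusted p = 0.998 in edgeR). With IFN against control, Cebpa stood at 0.14 ± 0.45 on day 14 (adjusted p = 0.932 in edgeR).

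Cebpb (chromosome 2, 167688915 to 167690418), an early-acting C/EBP factor that also works in osteoblasts and in acute-phase responses, climbed in both arms. It was read at 155.9 and 161.4 CPM in the IFN libraries of day 0, at 481.2 and 476.5 CPM at day 14 and at 560.1 and 570.5 CPM at day 21. The control values were 266.3 and 165.0 CPM at day 0, 423.2 and 426.8 CPM at day 14 and 530.7 and 889.3 CPM at day 21. Every day 14 and day 21 library lay above every day 0 library, and the 2 control libraries of day 0 and of day 21 were far apart while the IFN pairs were nearly equal. In the IFN arm Cebpb rose by 1.59 ± 0.27 (log2, SE) at day 14 over day 0 (adjusted p = 0.00471 in edgeR) and by 1.83 ± 0.27 at day 21 over day 0 (adjusted p = 0.0026 in edgeR). The control arm showed a rise of 1.72 ± 0.27 at day 21 over day 0 (adjusted p = 0.00732 in edgeR), and the day 14 value of 0.98 ± 0.27 missed the threshold (adjusted p = 0.0898 in edgeR). The day 14 call in the IFN arm was lost without either day 0 library of that arm (adjusted p = 0.057 and 0.056 in edgeR), and the control day 14 value was called without either control library of day 21 (adjusted p = 0.0113 and 0.0105 in edgeR).

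Between arms Cebpb was not called. The log2 fold change of IFN over control was 0.17 ± 0.26 at day 14 (adjusted p = 0.84 in edgeR) and -0.33 ± 0.26 at day 21 (adjusted p = 0.628 in edgeR). The day 21 value turned to 0.08 without replicate 2 of control day 21. Cebpb overlaps Tmem189 on the opposite strand, a gene with 20042 counts in all, and the use of strand in the counting is not given in the sources used here, so reads of the pair may not be separable.

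Cebpd (chromosome 16, 15887286 to 15891031) is the other early C/EBP factor of adipogenesis and a known target of glucocorticoids. In the IFN libraries it was read at 80.81 and 89.95 CPM at day 0, 92.69 and 88.09 CPM at day 14 and 111.3 and 120.4 CPM at day 21. Without IFN it was read at 89.05 and 86.83 CPM at day 0, 167.0 and 159.8 CPM at day 14 and 151.2 and 79.23 CPM at day 21. At day 14 both IFN libraries lay at the day 0 level and both control libraries lay well above it, without overlap. At day 21 replicate 2 of the control arm fell outside the other control library and below every IFN library of that day. The log2 fold change of IFN over control at day 14 was -0.85 ± 0.25, or 1.81-fold lower with IFN, and missed the threshold (adjusted p = 0.124 in edgeR). It kept its size, at -0.87, and was called lower in edgeR without replicate 1 or replicate 2 of control day 21 (adjusted p = 0.00149 and 0.00161), and DESeq2 called it too (adjusted p = 0.0255). At day 21 the value was 0.01 ± 0.24 (adjusted p = 0.993 in edgeR). It was -0.39 without replicate 2 of control day 21 and -0.04 without replicate 2 of IFN day 21. Without replicate 1 of control day 21, which leaves the library with high chaperone transcripts to stand for the group, it was 0.56.

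Over time Cebpd changed by 0.89 ± 0.25 on the log2 scale in the control arm at day 14 over day 0 (adjusted p = 0.0937 in edgeR), which was called without either control library of day 21 (adjusted p = 0.00128 and 0.00125 in edgeR). The same step was 0.08 ± 0.24 with IFN (adjusted p = 0.878 in edgeR). The difference between these 2 steps, IFN minus control, was -0.81 ± 0.35 (adjusted p = 0.425 in edgeR), and it too was called without either control library of day 21 (adjusted p = 0.0281 and 0.0306 in edgeR). Those libraries are not part of the day 14 contrast; they enter it through the shared estimate of spread, the scaling and the genes kept, which numbered 18860 and 18530 without them. Day 21 over day 0 gave 0.44 ± 0.24 in the IFN arm (adjusted p = 0.297 in edgeR) and 0.39 ± 0.24 in the control arm (adjusted p = 0.333 in edgeR). The IFN value was called without either control library of day 21 (adjusted p = 0.0219 and 0.02 in edgeR), and the control value was 0.79, and called, without replicate 2 (adjusted p = 0.00855 in edgeR) and -0.18 without replicate 1. Cebpd overlaps Spidr on the opposite strand, with 18484 counts in all, so its reads carry the same doubt as those of Cebpb.

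Fabp4 (chromosome 3, 10204088 to 10208576, minus strand), the fatty acid binding protein of adipocytes, changed most since day 0 of the 7 genes with enough counts for a fold change. In the IFN libraries it was read at 0.846 and 0.969 CPM at day 0, 7.98 and 6.88 CPM at day 14 and 25.59 and 39.90 CPM at day 21. In the control libraries it was read at 2.03 and 1.26 CPM at day 0, 24.51 and 17.02 CPM at day 14 and 37.75 and 53.72 CPM at day 21. Within each arm the 3 days did not overlap. Both IFN libraries lay below both control libraries at day 0 and at day 14, and the arms overlapped at day 21.

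At day 14 Fabp4 averaged 7.43 ± 0.78 CPM under IFN and 20.76 ± 5.30 CPM without it (SD, n = 2 each). The log2 fold change was -1.48 ± 0.31 (SE), or 2.79-fold lower with IFN (adjusted p = 0.0382 in edgeR). The call stood close to the threshold, and a fit with a replicate block did not make it (adjusted p = 0.0603 in edgeR). Of 9 settings other than leaving out 1 library, 8 made the call, DESeq2 and limma voom among them. It was lost in edgeR without replicate 1 of control day 14 (adjusted p = 0.252), without either IFN library of day 14 (adjusted p = 0.23 and 0.363), without either IFN library of day 0 (adjusted p = 0.0718 and 0.0677) and without replicate 2 of IFN day 21 (adjusted p = 0.0502). The fold change stayed between -1.72 and -1.20 over the 12 fits that left out 1 library. At day 21 the value was -0.48 ± 0.30 (adjusted p = 0.535 in edgeR), and it ran from -0.83 without replicate 2 to -0.19 without replicate 1 of IFN day 21. At day 0 it was -0.85 ± 0.36 (unadjusted p = 0.0402, adjusted p = 0.997 in edgeR), so the arms were apart in the same direction before day 14.

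**Figure D2:**
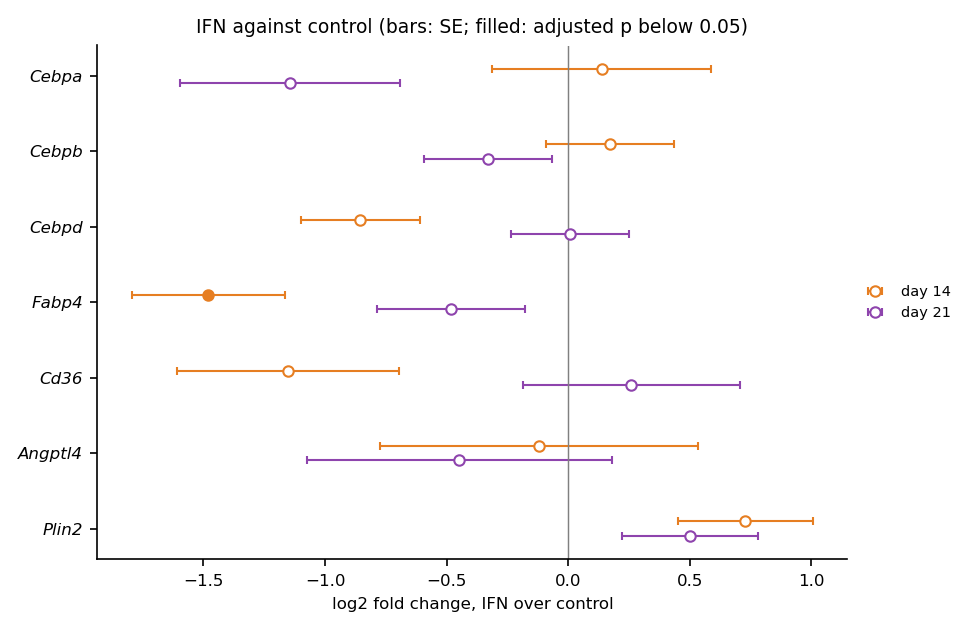
Log2 fold change of IFN over control (horizontal axis) at day 14 (orange) and day 21 (purple) for 7 of the 9 genes, with bars of 1 SE; a filled point has an adjusted p below 0.05 in edgeR. Fabp4 at day 14, at -1.48, is the filled point; Lpl and Pparg are left out for their low counts.

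Over time Fabp4 was called in every comparison of a later day with day 0. In the IFN arm it rose by 3.03 ± 0.36 (log2, SE) at day 14 over day 0 (adjusted p = 0.000771 in edgeR) and by 5.17 ± 0.38 at day 21 over day 0 (adjusted p = 8.01e-05 in edgeR). Without IFN it rose by 3.66 ± 0.35 at day 14 (adjusted p = 0.00076 in edgeR) and by 4.80 ± 0.37 at day 21 (adjusted p = 0.000185 in edgeR). These 4 calls held in edgeR whichever 1 of the 12 libraries was left out, with a highest adjusted p of 0.0144. Day 21 over day 14 gave 2.14 ± 0.32 in the IFN arm (adjusted p = 0.154 in edgeR) and 1.14 ± 0.31 in the control arm (adjusted p = 0.151 in edgeR). DESeq2 called both values higher (2.15 with IFN, adjusted p = 1.91e-06, and 1.16 in control, adjusted p = 0.0208). Limma voom called the IFN value (2.10, adjusted p = 1.47e-05) but not the control value. The IFN value was 2.145 without replicate 1 of control day 21 and 2.134 without replicate 2. The control value was 1.34 without replicate 1, which leaves the library with high chaperone transcripts to stand for the group. The step of Fabp4 at day 14 over day 0 differed between arms by -0.63 ± 0.48 (IFN minus control, adjusted p = 0.678 in edgeR), so the data do not show that its early climb was smaller with IFN.

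Cd36 (chromosome 5, 17781690 to 17888801, minus strand), a fatty acid translocase of the plasma membrane, ran the other way. It was read at 12.30 and 10.93 CPM in the IFN libraries of day 0, 3.00 and 1.79 CPM at day 14 and 4.73 and 7.06 CPM at day 21. The control libraries gave 8.62 and 11.23 CPM at day 0, 7.02 and 3.65 CPM at day 14 and 6.74 and 3.07 CPM at day 21. All libraries of day 14 and day 21 lay below all of day 0, and the lowest were those of IFN day 14. With IFN, Cd36 fell by 2.27 ± 0.47 on the log2 scale at day 14 over day 0 (adjusted p = 0.0121 in edgeR), or 4.84-fold. That call was lost without either IFN library of day 0 (adjusted p = 0.0744 and 0.0568 in edgeR) or of day 14 (adjusted p = 0.0561 and 0.139 in edgeR). The control step was -0.90 ± 0.44 (adjusted p = 0.356 in edgeR), and the difference of the steps, IFN minus control, was -1.38 ± 0.63 (adjusted p = 0.458 in edgeR).

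Against control, Cd36 stood at -1.15 ± 0.46 (log2, SE) with IFN at day 14 (unadjusted p = 0.0294, adjusted p = 0.282 in edgeR), with both IFN libraries below both control libraries, and at 0.26 ± 0.45 at day 21 (adjusted p = 0.85 in edgeR). The day 21 value changed sign without replicate 2 of control day 21, to -0.20, and without replicate 2 of IFN day 21, to -0.05. Day 21 over day 0 gave -0.98 ± 0.44 in the IFN arm (adjusted p = 0.2 in edgeR) and -1.01 ± 0.45 in the control arm (adjusted p = 0.181 in edgeR). The control value was -1.72 without replicate 1 of control day 21, which leaves the library with high chaperone transcripts to stand for the group. Both IFN libraries of day 21 lay above the 2 of day 14, at a log2 fold change of 1.30 that missed the threshold (adjusted p = 0.708 in edgeR).

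Lpl (chromosome 8, 68880491 to 68907448), the secreted lipase that releases fatty acids from lipoproteins, had few reads. Its counts were 2 and 0 in the IFN libraries of day 0, 8 and 2 on day 14 and 8 and 19 on day 21. Control counts were 23 and 3 on day 0, 36 and 0 on day 14 and 35 and 34 on day 21. At day 21 both IFN libraries lay below both control libraries, and at day 14 the control pair spanned the IFN pair. Over the group, Lpl was read at 0.389 CPM (exact 95% Poisson interval 0.256 to 0.566) with IFN and 1.02 CPM (0.797 to 1.30) in control at day 21, intervals that cover counting error only. Against the spread between libraries neither day passed the test (adjusted p = 0.656 at day 14 and 0.674 at day 21 in edgeR).

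Angptl4 (chromosome 17, 33773750 to 33781830, minus strand) encodes a secreted protein that inactivates Lpl. It was read at 1.48 and 1.495 CPM in the IFN libraries of day 0, 2.51 and 2.76 CPM at day 14 and 12.67 and 9.34 CPM at day 21. Controls stood at 0.369 and 1.61 CPM on day 0, 4.64 and 1.08 CPM at day 14 and 17.59 and 12.40 CPM at day 21. All 4 libraries of day 21 lay above all 8 of the earlier days, and the control pair of day 14 lay on both sides of the IFN pair. Angptl4 rose in the IFN arm by 2.88 ± 0.69 at day 21 over day 0 (log2, SE; adjusted p = 0.025 in edgeR), and in the control arm by 3.90 ± 0.72 (adjusted p = 0.0136 in edgeR). The IFN call was lost without either IFN library of day 0 (adjusted p = 0.178 and 0.186 in edgeR) or of day 21 (adjusted p = 0.133 and 0.0783 in edgeR), and the control call without replicate 1 of control day 0 (adjusted p = 0.0647 in edgeR).

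Between arms Angptl4 showed no difference beyond the spread: the log2 fold change of IFN over control was -0.12 ± 0.65 at day 14 (adjusted p = 0.96 in edgeR) and -0.45 ± 0.63 at day 21 (adjusted p = 0.804 in edgeR). The day 14 value was 1.28 without replicate 1 of control day 14. At day 14 over day 0 it stood at 0.82 ± 0.67 in the IFN arm (adjusted p = 0.492 in edgeR) and 1.51 ± 0.68 in the control arm (adjusted p = 0.31 in edgeR). The control value was 0.11 without replicate 1 of control day 14, 0.84 without replicate 1 of control day 0 and 2.94 without replicate 2 of control day 0. At day 21 over day 14 it stood at 2.06 in the IFN arm (adjusted p = 0.636 in edgeR) and 2.39 ± 0.67 in the control arm (adjusted p = 0.155 in edgeR).

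Plin2 (chromosome 4, 86648386 to 86670060, minus strand), the droplet coat protein found in nearly all cells that store neutral lipid, was the member with the most reads at day 21. It was read at 207.3 and 208.4 CPM in the IFN libraries of day 0, 703.7 and 700.2 CPM at day 14 and 1109 and 1103 CPM at day 21. In the control libraries it was read at 283.2 and 210.3 CPM at day 0, 529.9 and 317.0 CPM at day 14 and 604.6 and 958.1 CPM at day 21. Both IFN libraries lay above both control libraries at day 14 and at day 21 and below both at day 0. Plin2 rose in the IFN arm by 1.76 ± 0.29 at day 14 (log2, SE; adjusted p = 0.00396 in edgeR) and by 2.41 ± 0.29 at day 21 over day 0 (adjusted p = 0.000872 in edgeR). The control arm rose by 1.66 ± 0.29 at day 21 over day 0 (adjusted p = 0.0102 in edgeR), and the day 14 value was 0.78 ± 0.28 (adjusted p = 0.194 in edgeR).

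The IFN call of Plin2 at day 14 was lost without replicate 2 of IFN day 0 (adjusted p = 0.0508 in edgeR), and the control call at day 21 without replicate 2 of control day 0 (adjusted p = 0.0554 in edgeR). Against control, Plin2 stood at 0.73 ± 0.28 with IFN at day 14 (log2, SE; unadjusted p = 0.025, adjusted p = 0.261 in edgeR) and at 0.50 ± 0.28 at day 21 (adjusted p = 0.477 in edgeR). Limma voom with library weights called the day 14 value (0.78, adjusted p = 0.00578). Without replicate 1 of control day 14, the library with high hypoxia-responsive transcripts, it was 1.15, and without replicate 2 of that pair it was 0.41. The step at day 14 over day 0 was larger with IFN than in control by 0.98 ± 0.39, which missed the threshold (adjusted p = 0.401 in edgeR) and was called by limma voom (1.01, adjusted p = 0.0404).

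**Figure D3:**
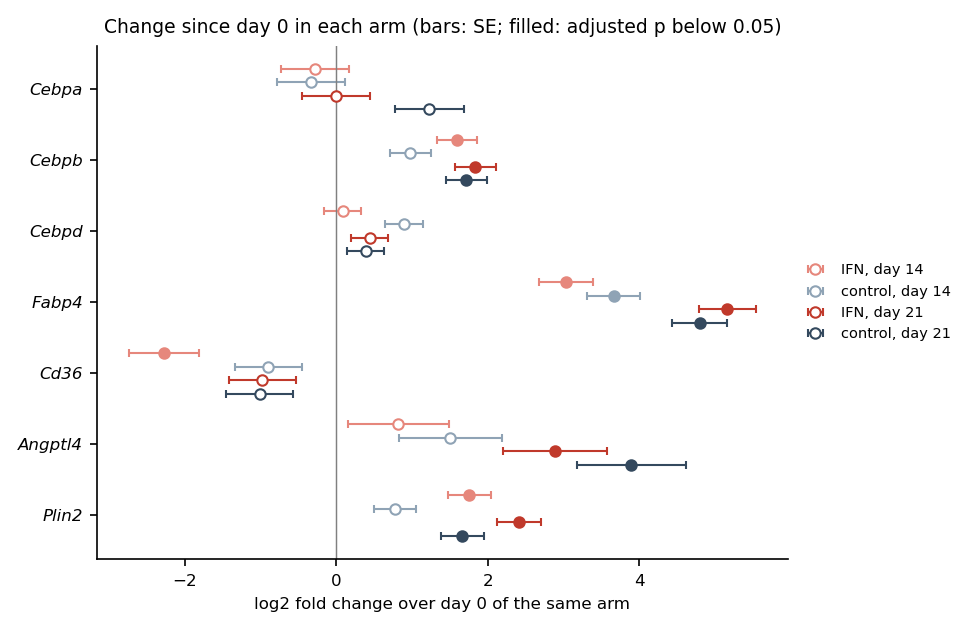
Log2 fold change over day 0 of the same arm (horizontal axis) for 7 of the 9 genes, at day 14 and day 21, with the IFN arm in reds above the control arm in blues and bars of 1 SE; filled points have an adjusted p below 0.05 in edgeR. Fabp4 lies farthest right at all 4 steps, up to 5.17, and Cd36 is the gene whose 4 points all lie left of 0.

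The change between days was also compared directly between arms. For day 14 over day 0, 0 of 8 genes differed by arm in edgeR, where 0.596% of all genes were called. An unadjusted p below 0.05 was found for 2, against 11.1% of all genes, with 0 called by DESeq2 and 1 by limma voom. Of all 17289 genes, DESeq2 called 476 and limma voom 580. For day 21 over day 14 the count was 0, where 0% of all genes were called, with 3 at an unadjusted p below 0.05, against 7.61% of all genes, and 0 called by DESeq2 or limma voom. For day 21 over day 0, added after values were seen, it was 0, where 0.0925% of all genes were called, with 0 at an unadjusted p below 0.05, against 8.25% of all genes, and 0 called by DESeq2 or limma voom. A call for a gene in 1 arm and not in the other, as for Cebpb, Plin2 and Cd36 at day 14, was therefore not shown to be a difference between the arms in edgeR.

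Within the control pairs of day 14 and of day 21 several members differed between the 2 libraries. In replicate 1 of control day 14 the median log2 CPM of 19 hypoxia-responsive genes was 8.33, against 6.68 in replicate 2 and 5.88 to 7.95 in the other 10 libraries. With IFN against control at day 14 the median log2 fold change of these 19 genes was -1.77. Of them 2 were called lower in edgeR, 14 had an unadjusted p below 0.05, and DESeq2 called 10 lower and limma voom 3. Among all genes 0.995% were called lower in edgeR, and of 17289 DESeq2 called 603 lower and limma voom 955. The share of all genes below that unadjusted p is not given for this comparison, here or for the lists below. Replicate 1 of control day 14 had the higher value of the pair for Fabp4, Cd36, Lpl, Angptl4 and Plin2, all 5 lipid carriers and handlers. It held 36 against 0 counts for Lpl and 4.64 against 1.08 CPM for Angptl4. The 3 C/EBP genes were nearly equal in that pair. In the IFN pair of day 14, replicate 1 also lay above replicate 2 for Fabp4, Cd36, Lpl and, barely, Plin2, and below it for Angptl4. The share of all genes that were higher in replicate 1 was not taken for either pair. In replicate 2 of control day 21, Cebpa, Cebpb, Plin2 and Fabp4 stood above replicate 1, and Cebpd, Cd36 and Angptl4 stood below it. The part of hypoxia-responsive and of stress transcripts in these values was not tested.

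A fuller set of fat cell genes was read beside the 9. Of 22 further adipocyte markers 13 were tested. Enzymes and droplet proteins that other cells also make were well read, with a median over libraries of 115.8 CPM for the desaturase Scd1, 45.84 CPM for Pnpla2, 31.59 CPM for Plin4, 19.82 CPM for Agpat2 and 6.63 CPM for Lipe. A subset of 8 that are more particular to fat cells, picked after values were seen, did not pass 0.9996 CPM in any library: Adipoq, Lep and Retn, which encode secreted hormones, Cfd, Plin1, Cidec, Cidea and the insulin-responsive glucose carrier Slc2a4. The list of fat cell markers they were picked from also held Pck1, at up to 0.4002 CPM, and Plin4, at 10.11 to 65.37 CPM. Adipoq had 26, Lep 12, Plin1 28 and Cidec 38 counts over all 12 libraries. Among the 13 tested, Fabp5, a close relative of Fabp4 that is also found outside fat, was lower with IFN at day 14, at 13.40 CPM on average against 36.76 CPM in control (log2 fold change -1.46 ± 0.29, adjusted p = 0.0299 in edgeR). It was the 1 of 13 called between arms at day 14 in edgeR, where 2.29% of all genes were called and 0.995% called lower. DESeq2 and limma voom each called 3 of the 13 lower there, and 603 and 955 of all 17289 genes. At day 21 between arms DESeq2 called 1 lower, and edgeR and limma voom 0. All other edgeR calls of this list were in the IFN arm over time. The acyl-CoA synthetase Acsl1 was lower at day 14 than at day 0 (-0.92 ± 0.18, adjusted p = 0.00929 in edgeR). The triglyceride lipase Pnpla2 was higher at day 21 than at day 0 (0.87 ± 0.18, adjusted p = 0.0123 in edgeR). Over day 0, the control arm had 0 of 13 called at day 14 and 0 at day 21 in edgeR. Unadjusted p-values below 0.05 numbered 2 and 3 for these steps. DESeq2 called 0 at day 14 and 2, both lower, at day 21, and limma voom called 0 at both. Of all 17289 genes, DESeq2 called 1229 and 2551 at these steps, and limma voom 372 and 140.

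**Figure D4:**
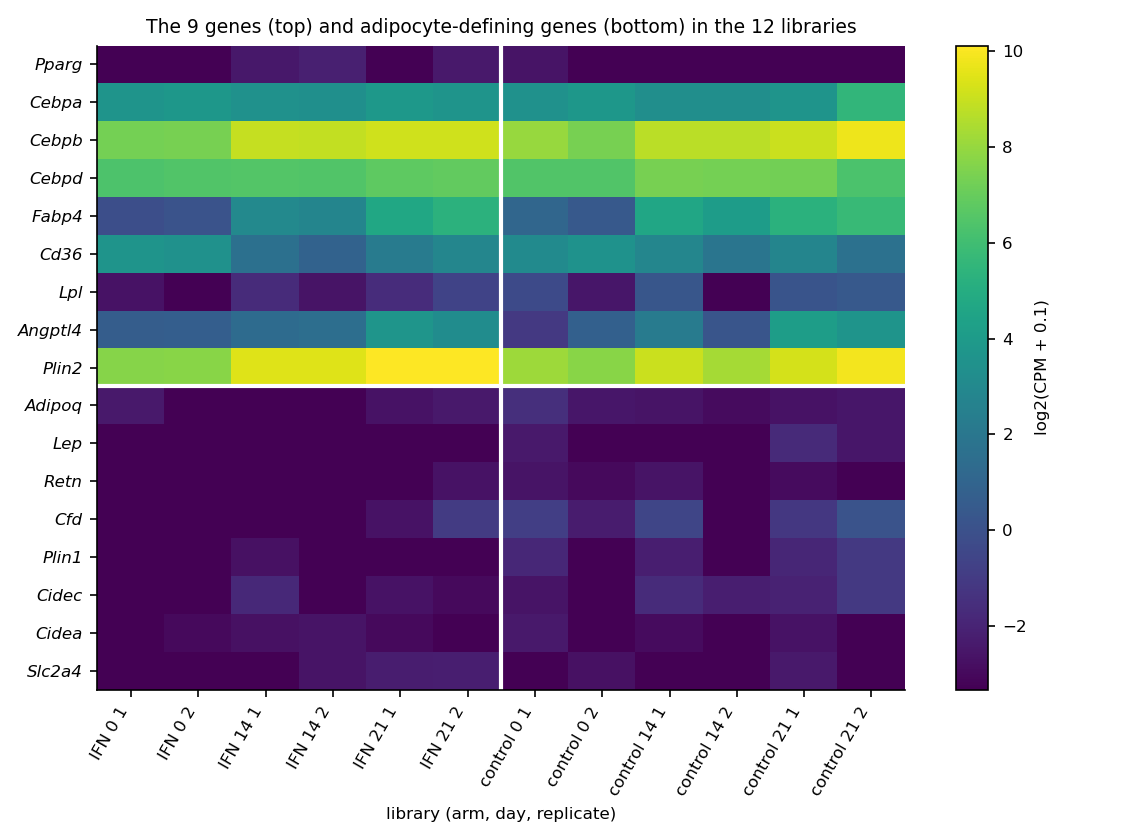
Log2 (CPM + 0.1) by colour for the 9 genes (upper rows) and 8 fat cell markers picked after values were seen (lower rows). The 12 libraries are labelled by arm, day and replicate, with IFN libraries left of control libraries. Plin4, a listed marker read at 10.11 to 65.37 CPM, is not shown. The lower rows reach at most 0.9996 CPM, a level that Pparg stays under in every library and Lpl, Fabp4 and Angptl4 in some.

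Of 23 transcription factors and coregulators of adipogenesis 20 were tested, and they split in direction. At day 14 over day 0 the IFN arm had 2 higher and 4 lower, among them the glucocorticoid receptor Nr3c1 (-1.81 ± 0.23, adjusted p = 0.00106 in edgeR), the preadipocyte factor Zfp423 (-1.53 ± 0.26, adjusted p = 0.00453 in edgeR) and Tcf7l1 (-0.92 ± 0.18, adjusted p = 0.0092 in edgeR). The control arm had 1 higher, the glucocorticoid-induced factor Klf15 (3.85 ± 0.61, adjusted p = 0.0109 in edgeR), and 1 lower, Nr3c1 (-1.20 ± 0.23, adjusted p = 0.0257 in edgeR). Klf15 was also 1 of the 2 higher in the IFN arm at that step (2.91 ± 0.59, adjusted p = 0.0111 in edgeR). At day 21 over day 0 the counts were 2 higher and 2 lower in the IFN arm and 2 higher and 3 lower in the control arm. With IFN against control at day 14, 1 of 20 was called, Tcf7l1, with means of 22.91 CPM under IFN and 48.84 CPM without it (-1.09 ± 0.18, adjusted p = 0.00935 in edgeR).

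Among 15 tested inhibitors of adipogenesis, of 16 listed, Klf2, a repressor of Pparg in preadipocytes, was lower at day 14 than at day 0 in the IFN arm (-3.94 ± 0.73, adjusted p = 0.00768 in edgeR), as was Wnt5b (-2.11 ± 0.57, adjusted p = 0.0414 in edgeR). Klf2 averaged 62.25, 4.05 and 8.07 CPM at days 0, 14 and 21 in the IFN arm and 41.86, 11.38 and 6.94 CPM in the control arm. At day 21 over day 0 Klf2 was the 1 gene of the list called in the IFN arm (-2.95 ± 0.70, adjusted p = 0.0239 in edgeR). The control arm had 1 of 15, Zfp521, that was higher at day 14 than at day 0 (1.32 ± 0.28, adjusted p = 0.0391 in edgeR). Between the arms at day 14, 0 of 15 were called in edgeR, where 2.29% of all genes were called, with 2 at an unadjusted p below 0.05. DESeq2 and limma voom each called 1, lower, and 603 and 955 of all 17289 genes lower.

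Of 20 PPAR-responsive genes of fatty acid oxidation 15 were tested. Pdk4, a kinase that restrains pyruvate oxidation, was higher at day 14 than at day 0 in the control arm (1.71 ± 0.39, adjusted p = 0.0488 in edgeR). With IFN 2 were lower at that step, Hadha (-0.70 ± 0.14, adjusted p = 0.0121 in edgeR) and Acadm (-1.20 ± 0.26, adjusted p = 0.015 in edgeR), both enzymes of beta-oxidation. At day 21 over day 0, Pdk4 was higher and Hadha lower in both arms.

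Of 24 further genes of lipid uptake and lipid droplets 18 were tested. Acsl4, an acyl-CoA synthetase that prefers arachidonic acid, was higher than at day 0 at each later day in both arms. Its mean was 92.99, 257.0 and 439.3 CPM at days 0, 14 and 21 in the IFN arm and 98.46, 188.8 and 254.4 CPM in the control arm. The log2 fold changes at day 21 over day 0 were 2.24 ± 0.17 in the IFN arm (adjusted p = 8.53e-05 in edgeR) and 1.37 ± 0.17 in the control arm (adjusted p = 0.00208 in edgeR). At that step 4 were higher and 1 was lower in the IFN arm, and 2 were higher in the control arm, with Fitm2, a protein of droplet formation, among the higher in both. Between arms 0 of 18 were called at day 14 and 0 at day 21 in edgeR, where 2.29% and 0.995% of all genes were called. An unadjusted p below 0.05 was found for 5 and 3, against 13.1% of all genes at day 21. DESeq2 called 1 lower at day 14 and 1 higher at day 21, and limma voom 1 higher and 2 lower at day 14 and 0 at day 21.

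Glucocorticoid-responsive genes, 13 listed and tested, were mostly higher after day 0. With IFN 11 were higher at day 14 and 11 at day 21 than at day 0, and in the control arm 10 and 11, with Tsc22d3, Fkbp5 and Zbtb16 higher at all 4 steps. Against control, 0 of 13 were called with IFN at day 14 and 0 at day 21 in edgeR, where 2.29% and 0.995% of all genes were called. An unadjusted p below 0.05 was found for 6 and 2, against 13.1% of all genes at day 21. DESeq2 called 3 lower at day 14 and 1 lower at day 21, and limma voom 1 higher and 5 lower at day 14 and 0 at day 21. The labels do not give what the differentiation medium held, and the part of glucocorticoid signalling in the values of the 9 genes was not tested.

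Markers of other cells that make Fabp4 or Cd36 were read at mixed levels. Of 12 macrophage markers 5 were tested, Tyrobp had 0 counts in every library, and Ptprc and Adgre1 had 14 and 6 counts in all. Their summed level was 44.73 to 46.41 CPM at day 0, 27.23 to 28.42 at day 14 and 29.61 to 33.21 at day 21 in the IFN arm, and 41.53 to 55.52, 30.21 to 33.97 and 21.10 to 33.05 CPM in the control arm. Lyz2 and Cd14 made up most of it. Lyz2, a lysozyme gene of myeloid cells, was lower at day 21 than at day 0 in the IFN arm (-2.29 ± 0.39, adjusted p = 0.00533 in edgeR) and in the control arm (-1.90 ± 0.39, adjusted p = 0.0216 in edgeR). Cd68, a lysosomal protein of macrophages and some other cells, averaged 1.72, 4.89 and 8.03 CPM at days 0, 14 and 21 in the IFN arm and 5.02, 7.65 and 7.95 CPM in the control arm, and was not called in edgeR. At day 21 over day 0 in the IFN arm, DESeq2 called 1 macrophage marker higher and 1 lower, and limma voom 2 higher and 1 lower. Of all 17289 genes, DESeq2 called 1521 higher and 1250 lower there, and limma voom 4155 higher and 3817 lower. Of 9 endothelial markers 5 were tested, and Cdh5 and Cldn5 had 21 and 10 counts in all. Vwf, the clotting factor carrier of endothelial cells and platelets, made up most of the sum on average in each group. In replicate 2 of control day 21 it did not, at 1.26 CPM of a sum of 6.37 CPM. Its means at days 0, 14 and 21 were 7.78, 29.11 and 32.22 CPM in the IFN arm and 14.29, 37.15 and 15.67 CPM in the control arm. The summed level was 8.40 to 10.19 CPM at day 0, 30.00 to 32.46 at day 14 and 32.81 to 35.70 at day 21 in the IFN arm, and 11.18 to 21.79, 16.90 to 61.68 and 6.37 to 32.15 CPM in the control arm. At day 21 over day 0 with IFN, Pecam1 was higher (2.80 ± 0.72, adjusted p = 0.0344 in edgeR) and Tek lower (-3.48 ± 0.74, adjusted p = 0.0149 in edgeR). Vwf was not called in edgeR. Limma voom called 4 of the 5 higher and 1 lower at that step, where it called 7972 of all 17289 genes. The part of endothelial and of macrophage transcripts in the Fabp4 and Cd36 values was not tested.

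Across the 12 libraries the members fell into loosely similar patterns, given here as Pearson correlations of log2 CPM that describe these libraries, which share arms, days and the outlying controls. Fabp4 and Cebpb correlated at 0.94, Cebpb and Plin2 at 0.92 and Fabp4 and Plin2 at 0.85, whereas Cebpb and Cd36 correlated at -0.74. Among 10838 other genes of at least moderate level, those most like Fabp4 were Flt1, a receptor for vascular endothelial growth factors (0.97), and Errfi1, an inhibitor of the epidermal growth factor receptor (0.97). Those most like Cebpb were Agap1 and Mreg (0.99 each), and those most like Plin2 were Smad7 and Skil (0.99 each), both feedback inhibitors of TGF-beta signalling. Skil averaged 41.94, 167.9 and 203.6 CPM at days 0, 14 and 21 in the IFN arm and 51.67, 85.87 and 148.4 CPM in the control arm.

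The remaining members had other nearest genes. Those of Cebpa were Apmap (0.98) and G3bp1 (0.97), which like Cebpa averaged highest at control day 21, at 37.95 and 409.1 CPM. For Cebpa that high mean rests on replicate 2 alone, at 45.76 CPM against 12.40 CPM in replicate 1. Those of Cebpd were Nf2 (0.97) and Sbsn (0.93), highest on average at control day 14, at 167.0 and 5.98 CPM. Those of Cd36 were Nol4 (0.96) and Pgm2l1 (0.95), lowest at IFN day 14, at 2.61 and 5.95 CPM. Those of Angptl4 were the chemokine Ccl9 (0.97) and Rassf8 (0.96), and those of Lpl, at its few counts, were Wwc1 (0.91) and Tkt (0.90).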

How the data were processed

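The deposited table holds the raw count of reads per gene in each of the 12 libraries. Per the submitters' processing notes, HISAT2, SAMtools and featureCounts were used with build mm10; versions, annotation and use of strand are not given in the sources used here. Genes with overlapping partners on the opposite strand are therefore uncertain. No row lacked a gene name, and 53292 of 55291 symbols matched GENCODE release M21, the source of positions.

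Tests used edgeR 4.0.16 (R 4.3.3). The filterByExpr rule over the 6 groups, at its minimum count of 10, kept 17289 genes. Counts were scaled by TMM and each group had its own mean. The robust quasi-likelihood F test had 6 residual degrees of freedom, and p was adjusted by Benjamini-Hochberg over the genes kept, with calls at an adjusted p below 0.05. CPM is TMM-scaled, except that the group levels given with Poisson intervals and the limits at 3 counts use the raw totals. Log2 CPM used a prior count of 2. The fits were tested on simulated data. Alternatives to this fit were DESeq2 1.42.0, limma 3.58.1 (voom with library weights), scaling by RLE or by library size alone, 2 other filters on low counts, a fit of only the groups compared, a replicate block, the omission of each library in turn, and that of replicate 1 of control day 0 together with replicate 2 of control day 21. A group reduced to 1 library is assumed to vary like the others.

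The 9 genes, the lists and the alternatives were chosen with earlier results of these data known. The lists cover adipocyte markers, adipogenic factors, inhibitors of adipogenesis, fatty acid oxidation, lipid uptake and droplets, glucocorticoid, hypoxia and endoplasmic reticulum stress responses, and macrophage, endothelial and osteoblast markers. Named genes are the 9, up to 3 called genes per list and comparison by adjusted p, and for each tested member the 2 genes with the highest correlation (mean log2 CPM at least 1). The 8 fat cell markers, the means of named genes and the libraries that stand apart were named after values were seen. To the 9 planned comparisons, 3 were added for day 21 against day 0. Part of the fatty acid oxidation list is not reported here.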

Additional observations from a re-analysis of the deposited data

How the results depend on the processing

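Over the 52 comparisons of single members reported, each under the 9 settings other than leaving out 1 library, 405 of 468 values kept their direction and their side of the threshold, 5 lost a call, 45 gained one and 13 changed sign. The number of the 8 genes called with IFN against control at day 14, 1 in edgeR, was 3 with no filter on low counts, 2 with only the groups compared, 2 in DESeq2, 3 in limma voom and 2 without both outlying control libraries, and 0 to 2 without 1 library. At day 21, 0 became 1 with no filter, and 0 to 2 without 1 library; at day 0 it stayed 0 in every fit. For control day 14 over day 0, 1 became 5 with no filter and 3 in DESeq2, in limma voom and without both outlying libraries (1 to 3 without 1 library), and for control day 21 over day 14, 0 became 5 with no filter and 3 in DESeq2 (0 to 5). For IFN day 21 over day 14, 0 became 2 with no filter, 6 with only the groups compared, 1 in DESeq2, 5 in limma voom and 1 without both outlying libraries (0 to 1), and for IFN day 14 over day 0 the 4 ran from 1 to 4 without 1 library. For control day 21 over day 0, 4 became 1 with only the groups compared, 3 in limma voom and 5 with no filter, in DESeq2 and without both outlying libraries (3 to 6), and for IFN day 21 over day 0, 4 became 7 in limma voom, 6 with only the groups compared and 5 with no filter and without both outlying libraries (3 to 5). The difference between arms of the day 14 over day 0 step, 0, became 1 in limma voom and without both outlying libraries (0 to 1), and ran from 0 to 3 for day 21 over day 14 and from 0 to 2 for day 21 over day 0. Values that changed sign were Cebpd with IFN at day 21 (-0.0075 with RLE scaling and in DESeq2, -0.011 with a filter of 1 CPM in 2 libraries and -0.39 without both outlying libraries), Cebpa over IFN day 21 and day 0 (0.0014 with RLE scaling and in DESeq2, 0.00414 with only the groups compared), Angptl4 with IFN at day 14 (0.22 in limma voom) and, without both outlying libraries, Cd36 (-0.20), Cebpa (0.073) and Cebpb (0.081) with IFN at day 21 and Cebpa for control day 21 over day 0 (-0.14). Without 1 library, the values that changed sign ran from -0.81 to 1.28 (Angptl4, IFN at day 14), -0.20 to 0.96 (Cd36, IFN at day 21), -1.79 to 0.073 (Cebpa, IFN at day 21), -0.64 to 0.081 (Cebpb, IFN at day 21), -0.39 to 0.56 (Cebpd, IFN at day 21), -0.18 to 0.79 (Cebpd, control day 21 over day 0) and -0.12 to 0.084 (Cebpa, IFN day 21 over day 0). The cause was not tested. The number of all genes called moved too. With no filter, 1175 of 33962 genes were called for IFN against control at day 14. That setting called 1503 for control day 14 over day 0 and 1426 for control day 21 over day 14. For IFN day 21 over day 14, 4502 of 15564 were called with only the groups compared and 2759 of 17289 in limma voom. For IFN day 21 over day 0 these were 8231 of 15666 and 7972 of 17289.

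Same-numbered libraries deviated together little, if at all. Over 15 pairs of groups the correlation of their deviations ran from -0.05 to 0.11, with 2 above 0.1, both between control groups. In the control arm CT010467.1 was higher in replicate 1 than in replicate 2 on each day. It stood at 21080 against 1103 CPM, 8633 against 99.28 CPM and 5917 against 147.6 CPM. Whether the numbers pair the control samples is not settled by these values. With a replicate block the count for IFN at day 14 was 0, with Fabp4 at an adjusted p of 0.0603 in edgeR, and Cebpa over IFN day 21 and day 0 was 0.018; no other call of a member changed. Depth limits Pparg and Lpl, whose counts were too few to show differences of moderate size.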
